A study of Ovis aries with 6 samples.

Results

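The regions described here are the 411 autosomal DNA methylation valleys listed in perirenal adipose tissue of sheep both before and after birth. A DNA methylation valley (DMV) is a long stretch of DNA, here 5 kb or more, in which almost every CpG is unmethylated. The authors deposited 1 list of DMVs per stage. The 512 autosomal entries of the fetal list and the 461 of the lamb list were merged where they overlapped by at least 1 base, which gave 552 merged valleys. Those with at least 1 entry of each list number 411, or 74.5%. A further 100 came from the fetal list alone and 41 from the lamb list alone. All classes of low-methylated region in the lists (DMVs, unmethylated regions outside them and low-methylated regions outside both) make 154896 merged regions.

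DNA was taken from the fat around the kidney of 6 untreated, wild-type, pure-bred Merino sheep and sequenced after bisulfite treatment, which leaves methylated cytosines to be read as C. For the 3 fetuses the labels give 132 days post conception, with term at 150 days, and brown adipose as the tissue. For the 3 lambs they give white adipose; the age after birth reads 89 days in the protocols but 80 days in the design text. Each animal had its own ewe, and each library was 1 lane of paired 100-base reads. Stage, the labelled kind of fat, and the tags TV (fetal) and VEH (lamb) in the sample descriptions cannot be told apart.

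As background, methylation of CpGs covers most of a mammalian genome, and CpG-rich promoters stay free of it. Valleys are among the widest of these free stretches. They often hold genes of transcription factors that set up organs in the embryo, and in tissues where such genes are silent the valleys are usually held by Polycomb proteins in place of DNA methylation. Unmethylated regions (UMRs) are mostly CpG-rich promoters, and low-methylated regions (LMRs) are short, CpG-poor and partly methylated, as distal enhancers often are. Since no annotation of the build (Oar_v3.1) was used here, valleys are named by position and not by gene.

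Depth was modest. Reads covering CpG positions totalled 136938075 to 209550245 per animal, counted once at each CpG covered. A CpG inside the 411 valleys had on average 7.58, 5.98 and 7.35 reads in fetuses 1 to 3 and 8.23, 5.01 and 5.53 reads in lambs 1 to 3. Levels were computed over CpGs with at least 1 read in each of the 6 animals, which kept 122108 of 133177 valley CpGs (91.7%). Because valleys hold many CpGs, a single valley still carried a median of 1862 reads per animal, with a range of 345 to 10283.

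The 411 valleys covered 3.31 Mb, or 0.135% of autosomal length, and held 0.534% of autosomal CpGs. Their length had a median of 6600 bases (quartiles 5700 and 9000) and ran from 5000, the lower bound of the lists, to 25900. Short ones made up much of the set. There were 142 under 6000 bases, 7 of them at exactly 5000, against 85 of 10000 bases or more and 24 of 15000 or more. Valleys of 1 list alone were nearer the lower bound, with median lengths of 5200 bases in the fetal list and 5400 in the lamb list. Of the 100 fetal-only valleys, 99 overlapped a lamb UMR, and of the 41 lamb-only valleys 40 overlapped a fetal UMR.

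CpG density of the shared valleys was 40.1 CpGs per kb at the median, with quartiles of 32.0 and 48.7. That is close to the 38.6 of UMRs outside valleys, whose median length was 1888 bases, and well above the 14.0 of LMRs and the 12.6 of the 5 kb flanks of the valleys themselves. UMRs outside valleys of at least 3 kb, which reached up to 97097 bases, had a lower median density, 28.2 CpGs per kb. Within the set, density did not follow length. Spearman's rho across the 411 valleys, given as a description, was 0.0271.

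**Figure D1:**
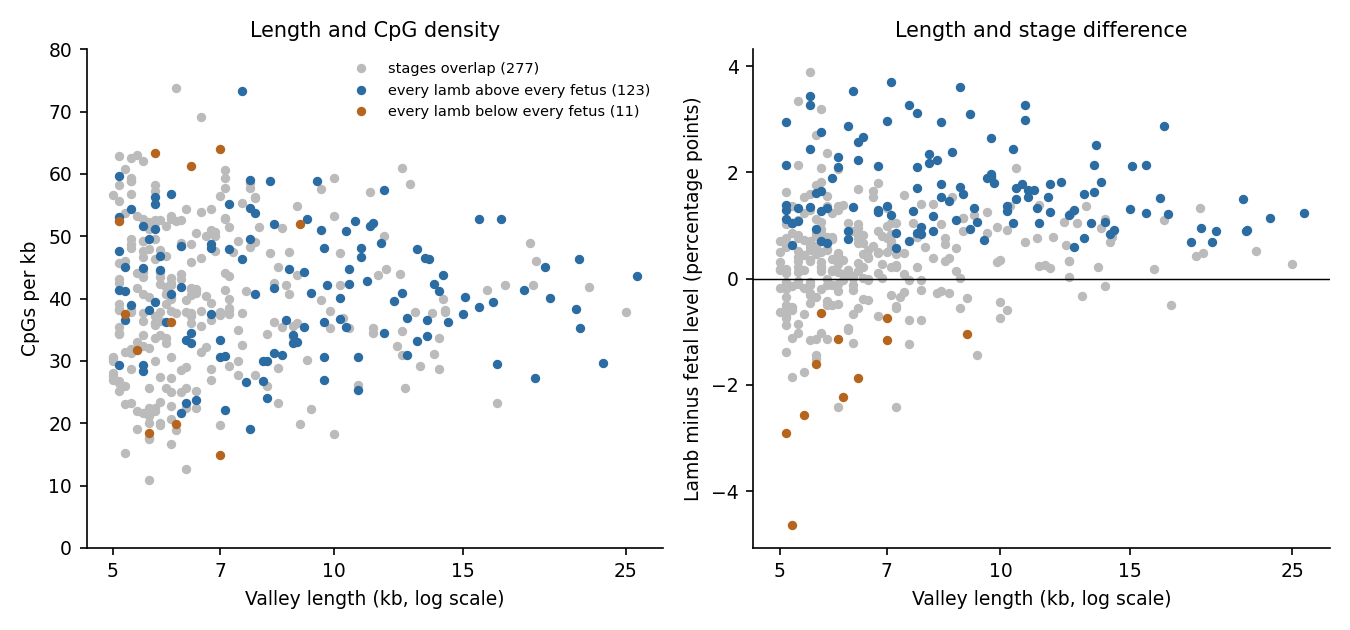
Each point is 1 of the 411 shared valleys; the horizontal axis is its length in kb (log scale), and the vertical axes are CpGs per kb (left) and the lamb minus fetal methylation level in percentage points (right). Blue marks the 123 valleys in which every lamb stood above every fetus, brown the 11 in which every lamb stood below, and grey the 277 in which the stages overlapped; density scatters around 40.1 CpGs per kb at all lengths, while most of the longest valleys lie above 0 on the right.

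The 5 longest valleys show how wide such a stretch can be. The longest, chr15:60768851-60794750, spanned 25900 bases with 1128 CpGs and stood at 4.37, 4.64 and 4.67% in fetuses 1 to 3 and 5.87, 6.20 and 5.31% in lambs 1 to 3. Every lamb lay above every fetus there. The next in length were chr6:14928751-14953750 (25000 bases), chr3:97397551-97420850 (23300 bases), chr18:45571351-45593650 (22300 bases) and chr18:19942551-19964250 (21700 bases). Their mean levels went from 5.54 to 5.81%, from 5.83 to 6.97%, from 3.77 to 4.29% and from 5.22 to 6.13% between fetuses and lambs. The stages overlapped in the first and the third of these 4 valleys. In 4 of the 5 longest valleys 1 fetal entry met 2 lamb entries, and 9 valleys of the whole set are of that kind.

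CpG density varied widely among the valleys. The densest, chr2:232489351-232495450, held 73.8 CpGs per kb. Its levels were 2.97, 3.85 and 3.46% in fetuses and 3.16, 2.53 and 4.52% in lambs, which overlap. Next came chr11:31788651-31796150 (73.3 CpGs per kb, 4.31% in fetuses and 5.03% in lambs), chr26:24378151-24384750 (69.1, 2.82 and 3.23%), chr13:11612151-11619150 (64.0, 4.04 and 2.89%) and chr5:103956451-103962150 (63.3, 2.50 and 1.86%). In the last 2 every lamb was below every fetus. At the other end stood chr16:14035251-14040850, with 10.9 CpGs per kb over 5600 bases and only 61 CpGs. Its levels were 0.728, 2.48 and 1.04% in fetuses and 1.85, 1.06 and 3.16% in lambs on 345 reads per animal, and they overlapped. The other CpG-poor valleys were chr20:23163151-23169450 (12.7 CpGs per kb), chr1:98336751-98343750 (14.9), chr4:93788151-93793350 (15.2) and chr1:105043551-105049550 (16.7). These 5 lay at 1.72 to 9.80% over all animals, and the first 2 of them were below the median CpG density of LMRs.

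That the level in the valleys was low follows from the lists and is no result, but its spread is a property of the set. Averaged over animals, 53 valleys stood under 3%, 352 at 3 to 10% and 6 above 10%. The lowest were chr1:183151651-183157850, chr18:32285151-32291450 and chr11:26944951-26950450, all at 1.44 to 1.49% over the animals. In the first of them the animals ran from 0.814 to 1.70% in fetuses and from 1.35 to 1.79% in lambs. The highest besides one that goes against its label were chr11:11260551-11266450 at 13.9% and chr3:133248351-133254050 at 13.1%.

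The valley chr15:29001251-29010550 goes against the label of a shared valley. The fetal and the lamb entry overlapped over only 2400 of its 9300 bases (25.8%), and its levels were 30.9, 26.1 and 24.6% in fetuses and 25.7, 25.1 and 26.5% in lambs. In 1 kb steps, the step at its right end stood at 62.0 to 77.2% in the 6 animals on 375 reads per animal over 12 CpGs, while no full step inside exceeded 35.1%. Only 2 other valleys had less than 50% of their bases in both lists, chr2:223466251-223480150 (41.7%) and chr18:9707851-9716350 (42.4%). Elsewhere the lists met closely. The median share of a valley in both lists was 98.0%, 340 valleys had at least 90%, and 105 had identical ends. The UMR lists gave the same picture, since 409 valleys overlapped exactly 1 fetal UMR and 408 exactly 1 lamb UMR, and the median share of a valley inside UMRs was 100% for the fetal and 99.6% for the lamb list.

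Seen from its ends, a valley was a flat floor with narrow walls. In the outermost 250 bases of each end the level was 28.6, 29.6 and 27.3% in fetuses and 30.1, 32.1 and 29.7% in lambs. From 250 to 500 bases in, it was 11.5% ± 0.742 against 12.5% ± 0.427 (SD, n = 3 each), and from 500 to 1000 bases 4.52, 4.52 and 4.12% against 5.00, 5.56 and 4.90%. The floor lay between 1000 and 2500 bases from the nearer end, where the fetal mean was 3.57 to 3.58% and the lamb mean 4.08 to 4.24%. Deeper into the valley both stages stood a little higher, at 4.35% in fetuses and 5.18% in lambs over 5000 bases from an end, a depth that 82 valleys reach. CpG density changed with the wall too, from 16.0 CpGs per kb in the outermost 250 bases to 43.3 inside 1000 bases from each end. Over 5000 bases from an end it was 39.1.

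**Figure D2:**
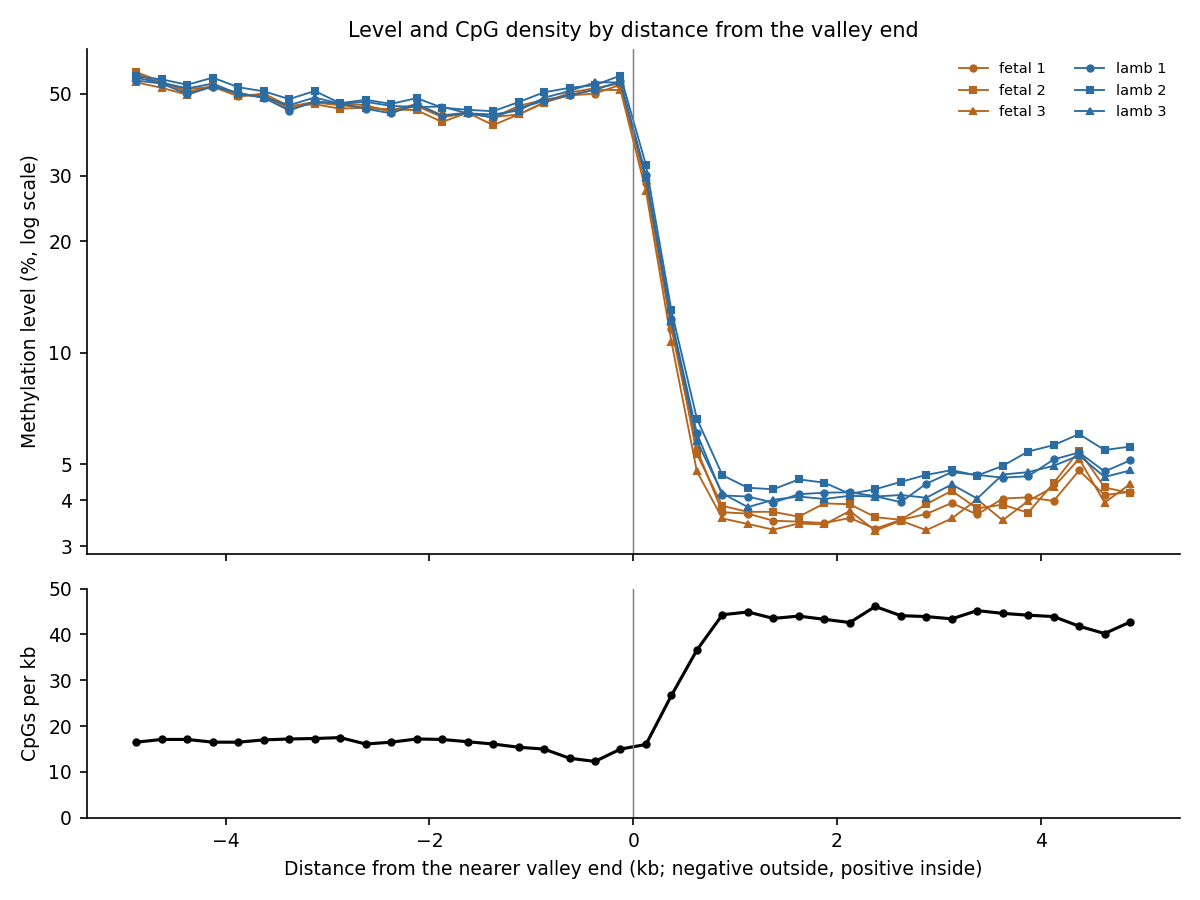
Upper panel: methylation level in percent (log scale) in steps of 250 bases, by distance in kb from the nearer valley end (negative outside, positive inside), 1 line per animal (brown fetal, blue lamb). Lower panel: CpGs per kb in the same steps; the level drops steeply within 1 kb of the end, and inside the valley the 3 lambs lie above the 3 fetuses in 19 of 20 steps.

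Every lamb had a higher level than every fetus over the shared valleys as a class. The level was 4.86, 5.02 and 4.69% in fetuses 1 to 3, a mean of 4.86% ± 0.164, and 5.52, 5.93 and 5.42% in lambs 1 to 3, a mean of 5.62% ± 0.267 (SD, n = 3 each). The difference of 0.766 percentage points exceeded the spread within either stage, and the groups did not overlap. A two-sided exact permutation test could reach no less than the p = 0.1 it gave with 3 animals a stage, so that test cannot pass 0.05 for any class level here. With at least 10 reads in every animal, which left 316 CpGs and 3 or more of them in only 9 valleys, the difference was -0.736 points and the stages overlapped (exact permutation p = 0.8). In DNA of whole tissue, a change in the share of cells that carry the methylation and a change in all cells cannot be told apart.

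In both stages the least covered animal had the highest level, lamb 2 with 5.01 reads per CpG and 5.93%, and fetus 2 with 5.98 reads and 5.02%. Lambs 2 and 3 were the least covered of the 6 animals, and lamb 1, the most covered, stood at 5.52%. Apart from the coverage minimums, the part of coverage in the stage difference was not tested. Leaving out lamb 2 left a difference of 0.611 points with no overlap between the stages.

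**Figure D3:**
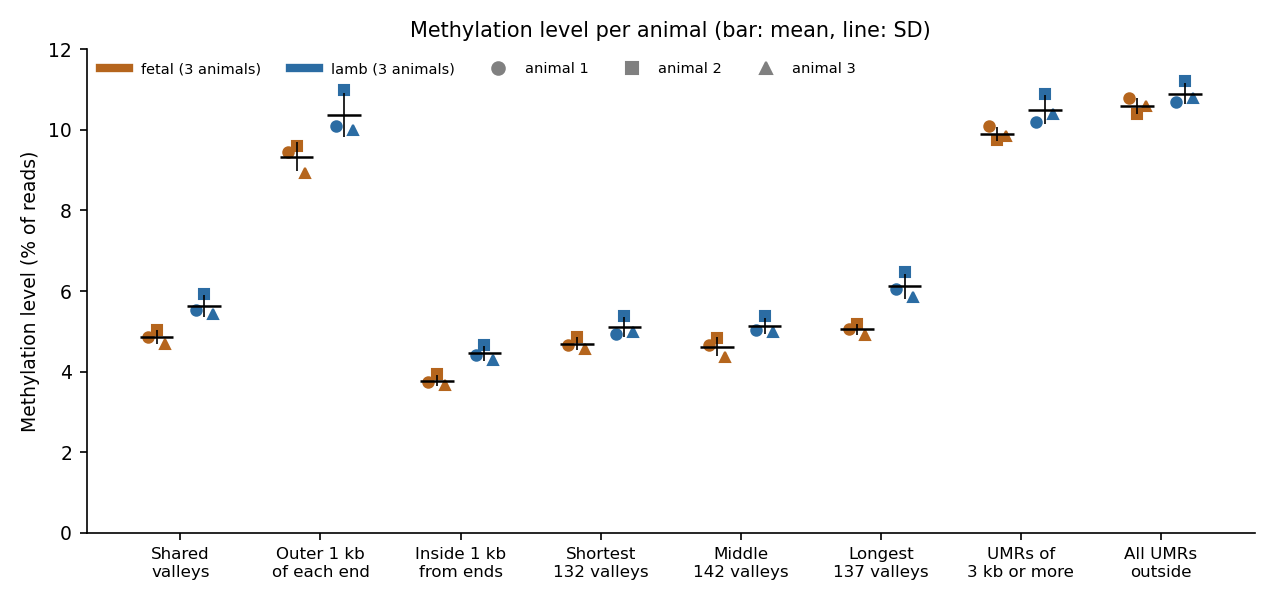
Methylation level in percent for each animal (circle, square and triangle for animals 1 to 3 of a stage; brown fetal, blue lamb; black bar the mean, line the SD, n = 3) in the shared valleys, in their outer 1 kb and their inside, in the shortest, middle and longest valleys, and in UMRs outside valleys. The lambs lie above the fetuses in every group except all UMRs outside valleys, where they overlap, and the gap is widest within the longest 137 valleys and at the ends.

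Other classes had higher means in lambs as well, except the valleys of the lamb list alone. Those went from 6.32% ± 0.398 to 5.30% ± 0.362 and the valleys of the fetal list alone from 6.12% ± 0.0267 to 7.37% ± 0.295 (SD, n = 3 each), directions that membership of 1 list favours. LMRs went from 33.7% ± 0.838 to 35.2% ± 0.684, with every lamb above every fetus. UMRs outside valleys went from 10.6% ± 0.228 to 10.9% ± 0.257 (SD, n = 3 each; exact permutation p = 0.3), and those of at least 3 kb from 9.90% ± 0.192 to 10.5% ± 0.340 (exact permutation p = 0.1). The 5 kb flanks of the valleys went from 48.6% ± 0.241 to 49.6% ± 1.04 (exact permutation p = 0.2), and all autosomal CpGs from 70.4% ± 0.0926 to 71.1% ± 1.09 (exact permutation p = 0.4). Taken within each animal, the valley level minus the UMR level was -5.99, -5.37 and -5.91 points in fetuses and -5.20, -5.28 and -5.40 points in lambs. Two-sided, that difference of 0.462 points between the stages gave an exact permutation p = 0.2, and lamb 3 lay within the fetal range. Against UMRs of at least 3 kb the stages differed by 0.175 points (exact permutation p = 0.4) and against their flanks -0.245 points (exact permutation p = 0.7), each with overlap. The contrast with all UMRs did not overlap between the stages at a minimum of 3 reads (0.549 points), at 5 reads (0.696 points) or with equal weight per CpG (0.351 points), each at an exact permutation p = 0.1. With a smallest possible p of 0.1, this test leaves undecided whether the valleys differ from other unmethylated DNA.

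The lamb excess was present in each bin of distance from the end, in both the walls and the floor. It was 2.13 points in the outermost 250 bases, 1.04 points from 250 to 500 bases and 0.767 points from 500 to 1000. The merged end is more often the fetal one, as the lamb entry was the shorter in 206 valleys and the longer in 96, which favours higher lamb levels in these outer bins. On the floor it ran from 0.503 points (1000 to 1500 bases) to 0.679 points (1500 to 2000 bases). Deeper, where not all valleys reach, the excess ran from 0.671 points (2500 to 3500 bases) to 0.866 points (3500 to 5000 bases). In each of the 9 bins every lamb lay above every fetus, at an exact permutation p = 0.1, which is also the Benjamini-Hochberg adjusted value over the 17 bins and groups compared. The outer 1 kb of both ends went from 9.33% ± 0.363 to 10.4% ± 0.560 and the inside from 3.78% ± 0.136 to 4.45% ± 0.193 (SD, n = 3 each). Set against each other within each animal, ends and inside did not separate the stages, with 5.73, 5.68 and 5.25 points in fetuses and 5.70, 6.38 and 5.75 in lambs (exact permutation p = 0.2).

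Grouped by merged length, the longest valleys showed the largest lamb excess. The shortest 132 valleys (5000 to 5800 bases) went from 4.70% ± 0.165 to 5.10% ± 0.243, the middle 142 (5900 to 7800 bases) from 4.62% ± 0.230 to 5.13% ± 0.207, and the longest 137 (7900 to 25900 bases) from 5.05% ± 0.132 to 6.12% ± 0.317 (SD, n = 3 each). The level of the longest valleys minus that of the shortest was 0.381, 0.314 and 0.378 points in fetuses and 1.10, 1.09 and 0.860 points in lambs. All 3 fetuses lay close together and all 3 lambs well above them, a difference of 0.657 points with an exact permutation p = 0.1, or 0.3 after Benjamini-Hochberg adjustment over the 3 contrasts of this kind. The contrast was chosen after the levels had been seen. Restricted to bases that both lists hold, the longest valleys went from 4.60 to 5.55% and the shortest from 4.36 to 4.72%, which leaves 0.594 points between the excesses. These groups were still cut on merged length, and the lists behind that length rest on these same reads. Across the 411 valleys, Spearman's rho between lamb minus fetal listed length and stage difference was -0.414, as a description. The part of the list calling in the length contrast was not tested.

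By CpG density the excesses were alike in size. The 137 valleys of lowest density went from 5.30% ± 0.192 to 6.10% ± 0.287, the middle 137 from 4.94% ± 0.137 to 5.76% ± 0.298, and the 137 of highest density from 4.54% ± 0.184 to 5.24% ± 0.242 (SD, n = 3 each). The excess of lambs was 0.793, 0.819 and 0.698 points in that order. Density extremes compared within each animal gave -0.0957 points between the stages, with overlap (exact permutation p = 0.4). Across single valleys, Spearman's rho between density and stage difference was -0.0208, and between length and stage difference 0.277, both descriptions over 411 valleys that share the same 6 libraries.

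Among single valleys the lamb excess was common, small and rarely past the test. All 411 were tested within a fit over 154033 low-methylated regions, a quasi-binomial test of methylated against unmethylated reads with Benjamini-Hochberg adjustment. It called 1 valley at an adjusted p under 0.05, higher in lambs, against a background of 0.0234% of all regions (36 called) and of 0.0156% called higher in lambs. Fitted and adjusted over all merged DMVs alone, the same test called 45 of the 411, 43 of them higher in lambs. That fit called 65 of all 551 merged DMVs tested. At an unadjusted p under 0.05 there were 125 valleys (30.4%; 115 higher and 10 lower in lambs), where the background was 13.6%, with 8.54% higher in lambs. With limma only 7 of the 411 valleys reached that unadjusted p, a share below its background of 12% of all regions. With edgeR 78 did, against 12.4%. The mean was higher in lambs in 316 valleys (76.9%), against 56.5% of all regions. Every lamb lay above every fetus in 123 valleys (29.9%), against 11.1%, and every lamb lay below every fetus in 11 (2.68%), against 6.86%. Most regions of that background are LMRs, with a median of 51.5 reads per animal. The part of read number in these shares was not tested. Among UMRs of at least 3 kb outside valleys, 61.1% had a higher mean in lambs, 12.8% every lamb above and 4.66% every lamb below. For valleys of the fetal list alone these shares were 85.9%, 29.3% and 1.01%, and for those of the lamb list alone 34.1%, 2.44% and 29.3%. The median difference over the shared valleys was 0.726 points (quartiles 0.0909 and 1.32), against 0.996 points at the median of all regions, most of which are LMRs (1.49 points). It was above the medians of UMRs outside valleys (0.341 points) and of those of at least 3 kb (0.469 points). Only 44 valleys differed by more than 2 points upward and 6 by more than 2 downward.

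**Figure D4:**
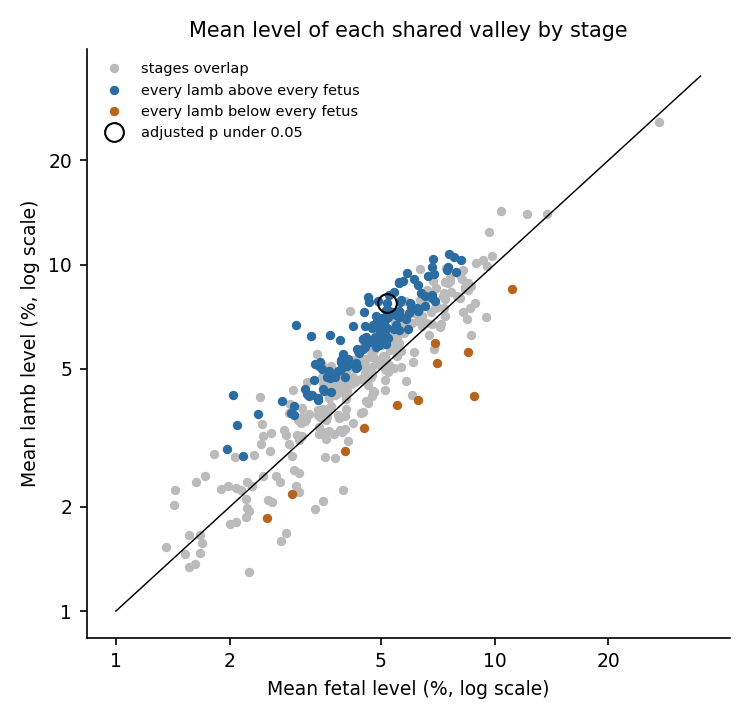
Mean methylation level of each of the 411 shared valleys in fetuses (horizontal) and lambs (vertical), in percent on log scales, with the line of equality. Blue marks valleys with every lamb above every fetus, brown those with every lamb below, grey those with overlap, and the ring the 1 valley past the adjusted test; most points lie just above the line, and the order of the valleys is much the same in both stages.

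Precision within a valley bears on these counts. The SD between animals had a median of 0.592 points in fetuses and 0.742 points in lambs, about as large as the median difference. Valleys with every lamb above every fetus were 22 of the shortest 132 (16.7%), 29 of the middle 142 (20.4%) and 72 of the longest 137 (52.6%). Those with every lamb below every fetus were 5, 5 and 1 in that order. Median reads per animal were higher alongside, at 1308, 1679.8 and 2969.8, and the part of read number in those counts was not tested. The median difference was 0.507, 0.487 and 1.07 points in the same order. Lamb 2 was the highest animal in 165 valleys and fetus 3 the lowest in 138, so neither animal alone set the ends of the range in most valleys. The levels of a valley in the 2 stages were close, with a Spearman's rho of 0.878 between stage means over the 411 valleys, as a description.

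The valley past the test, chr2:134568051-134581550, was higher in lambs. It spans 13500 bases with 625 CpGs (46.3 per kb) and carried 4321 reads per animal. Its level was 4.76, 5.31 and 5.52% in fetuses 1 to 3 and 7.70, 7.95 and 7.50% in lambs 1 to 3. The stages lay far apart relative to their spread, with a difference of 2.52 ± 0.260 points (SE) and a quasi-binomial, Benjamini-Hochberg adjusted p = 0.0364. The widest gap among its 1 kb steps lay at one end. In the step at its left wall the level was 19.5, 18.2 and 14.1% in fetuses and 43.8, 34.6 and 30.8% in lambs, and the lamb entry of the list starts 1200 bases further in than the fetal one. A deposited DMR of the hyper list, chr2:134567262-134568330, crosses that wall and went from 34.2% ± 3.73 to 59.2% ± 2.41 (SD, n = 3 each). With 500 bases trimmed from each end the difference was 2.19 points and the call was lost (Benjamini-Hochberg adjusted p = 0.0712), as it was without any one animal (adjusted p from 0.0531 to 0.164), with limma (adjusted p = 0.473) and with edgeR (adjusted p = 0.226).

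**Figure D5:**
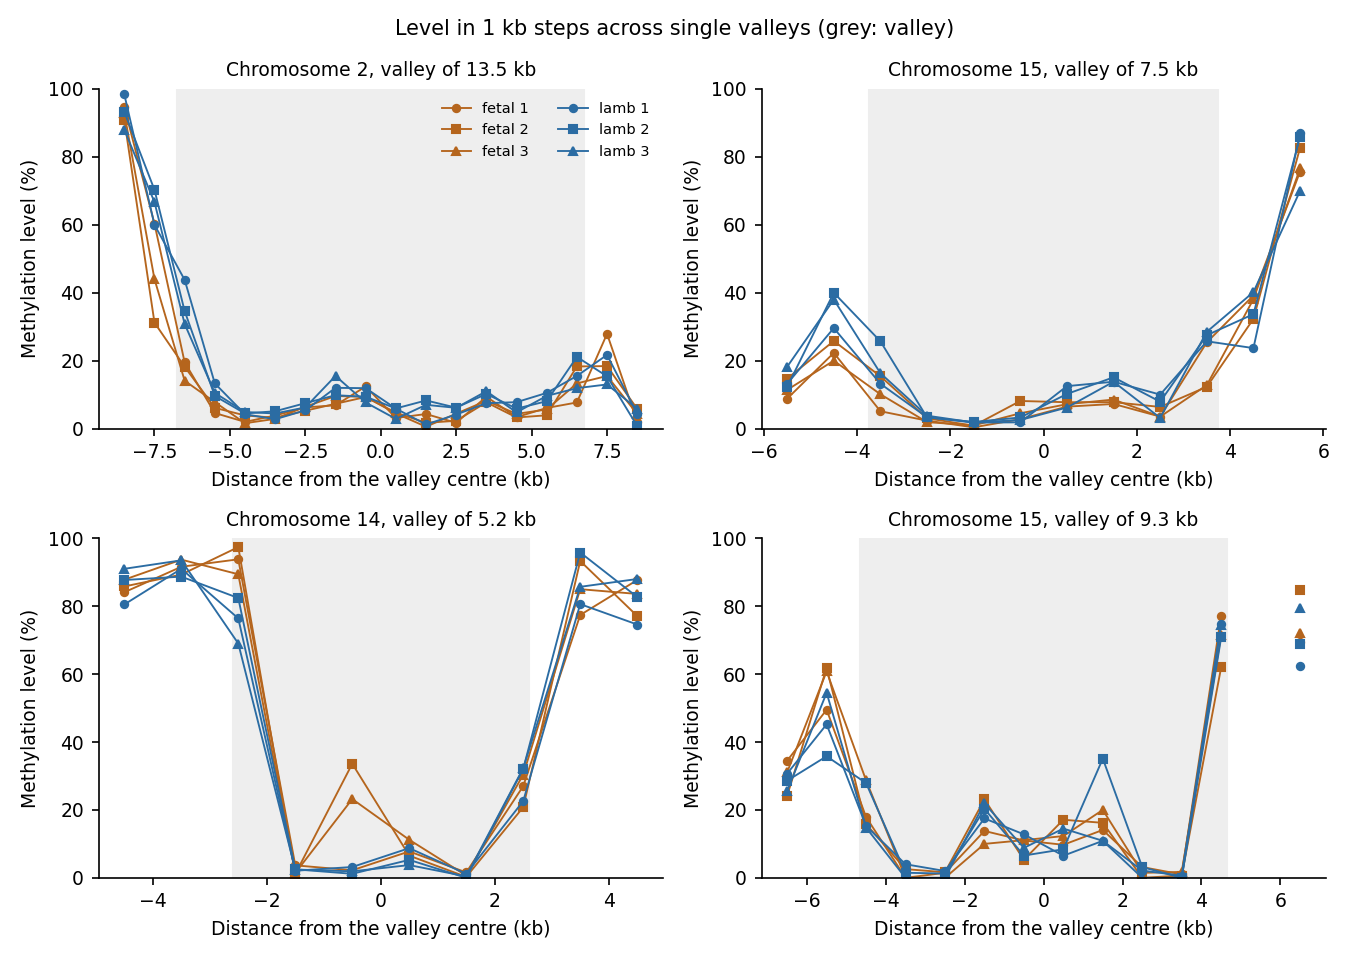
Methylation level in percent in steps of 1 kb by distance in kb from the centre of 4 valleys (grey), 1 line per animal (brown fetal, blue lamb): the called valley on chromosome 2, the next by p on chromosome 15, the valley with the largest drop on chromosome 14, and the valley of highest level on chromosome 15. The lambs lie above the fetuses at the left wall on chromosome 2, and on chromosome 14 fetuses 2 and 3 alone rise at the centre.

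The next valleys by p missed the adjusted threshold and are named after their values were seen. At chr15:61371851-61379350 the level was 5.52, 6.56 and 5.11% in fetuses and 9.05, 10.0 and 7.90% in lambs, with no overlap, a difference of 3.26 points (Benjamini-Hochberg adjusted p = 0.0795). At chr5:26487451-26494550, a CpG-poor valley of 22.1 CpGs per kb, it was 2.33, 3.24 and 3.41% against 6.68, 7.85 and 5.54%, a difference of 3.70 points (Benjamini-Hochberg adjusted p = 0.0889). Both were above in every lamb. The valleys chr18:38094951-38111650 and chr4:14253451-14264250 differed by 2.88 and 3.27 points (Benjamini-Hochberg adjusted p = 0.0815 and 0.0847), likewise with every lamb above every fetus.

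Valleys in which every lamb lay below every fetus were few, though 25 valleys had a mean lower in lambs by more than 1 point. The largest drop was at chr14:47748651-47753850, a valley of 5200 bases, with 5.84, 10.9 and 9.66% in fetuses and 4.82, 3.92 and 3.79% in lambs. No lamb reached the lowest fetus, but fetus 1 lay nearer to lamb 1 than to the other fetuses, and the difference of -4.64 points missed the threshold (Benjamini-Hochberg adjusted p = 0.114). Other valleys with every lamb below every fetus were chr2:247360451-247365550 (8.52 to 5.61%), chr14:60454651-60460050 (11.1 to 8.52%) and chr5:16254951-16261050 (6.29 to 4.07%), chosen here for their size after the values were seen. The 11 valleys of this kind were 5100 to 9000 bases long.

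Inside the valleys, 2840 non-overlapping windows of 1 kb were tested within a fit over 2013260 autosomal windows. The test called 1 of them, lower in lambs, against a background of 0.00561%. It was chr14:47750001-47751000, near the middle of the chromosome 14 valley above. Its level was 4.76, 46.2 and 36.1% in fetuses 1 to 3 and 3.85, 1.67 and 2.86% in lambs 1 to 3, a difference of -26.2 ± 12.5 points (SE; Benjamini-Hochberg adjusted p = 0.0342). Fetuses 2 and 3 carried the difference, while fetus 1 stood next to the lambs. With fetus 1 left out the smallest adjusted p among valley windows was 0.000549, and without any other single animal it was 0.0914 to 0.177, so the call was lost.

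Across the windows, 319 (11.2%; 272 higher and 47 lower in lambs) had an unadjusted p under 0.05, against 6.14% of all windows. Every lamb lay above every fetus in 310 (10.9%, against 5.97%) and below in 82 (2.89%, against 4.56%). That background takes in all autosomal windows, methylated DNA included. The part of read number and of level in these shares was not tested. The median window stood at 3.94%, and 1718 (60.5%) stood under 5%. Windows of higher methylation inside a valley were few, since 20 windows in 20 valleys stood above 20%. The highest, chr20:44628001-44629000, held only 3 CpGs, and the next, chr18:38113001-38114000, held 4. Another of them, chr21:23701001-23702000, had 20.1, 15.1 and 15.5% in fetuses and 36.2, 31.4 and 25.5% in lambs, with no overlap (Benjamini-Hochberg adjusted p = 0.117). The lamb entry of its valley starts 4000 bases further in than the fetal one, so this window lies in the fetal entry alone. This window is named after its values were seen.

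Of the authors' autosomal DMRs, 5 of 526 in the hyper list and 4 of 496 in the hypo list touched a shared valley, and 4 of these 9 crossed a valley end. Their differences are the basis of those lists and are given as values. Inside a valley on chromosome 7, the hyper DMR chr7:29785496-29785548 went from 31.4% ± 9.23 to 61.1% ± 11.5 (SD, n = 3 each), 2702 bases from the nearer end. At chr14:52294762-52295021 the level was 4.69, 7.02 and 8.33% in fetuses and 18.6, 50 and 25% in lambs, a wide spread among the lambs. The hyper DMR chr1:67331203-67331634 bridged the 100 bases between 2 neighbouring valleys and went from 25.0% ± 4.90 to 48.0% ± 3.76. The fifth, on chromosome 25, held 2 usable CpGs with 7.33 reads per animal, too few for a level.

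The 4 hypo DMRs lay mostly at or near valley ends. Only chr14:47750562-47750675 lay on the floor, 1911 bases from the nearer end. At chr11:39975139-39975355, 588 bases inside a valley, the level was 32, 34.2 and 35.5% in fetuses and 10.8, 7.27 and 8.57% in lambs, and the lamb entry of that valley reaches 900 bases further out at its start than the fetal one. The DMR chr14:47750562-47750675 lies inside the called window and had 6.25, 50 and 43.7% in fetuses and 4.49, 2.63 and 3.92% in lambs, again with fetus 1 beside the lambs. At the valley ends, chr3:214162239-214162756 went from 50.3% ± 14.4 to 23.4% ± 11.7 and chr7:69611435-69611811 from 81.8% ± 0.903 to 59.8% ± 7.76 (SD, n = 3 each).

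The listed ends of the valleys differed between stages more often toward a narrower lamb valley. The listed length was shorter in lambs in 206 valleys, longer in 96 and the same in 109, with a median change of -100 bases and a range of -8100 to 5100. The lists rest on these same reads, so levels by this grouping are a description. Valleys narrower in lambs went from 4.93 to 6.07%, those of the same length from 4.13 to 4.40%, and those wider in lambs from 5.37 to 5.67%. The mean was higher in lambs in 186 of 206, 71 of 109 and 59 of 96 of them, and the median difference was 1.04, 0.259 and 0.360 points. Every lamb lay above every fetus only in the narrower group. Among valleys of the same length lamb 1 (4.29%) lay below fetus 2 (4.33%), and among those wider in lambs lamb 3 (5.40%) lay below fetus 2 (5.56%).

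Shared valleys were found on all 26 autosomes, unevenly. Per 10 Mb there were 3.86 on chromosome 11, 3.52 on chromosome 20 and 2.95 on chromosome 22, against 0.907 on chromosome 26 and 0.950 on chromosome 9. Counted per 10000 CpGs the order changed at the top, with 0.277 on chromosome 20, 0.262 on chromosome 22 and 0.259 on chromosome 11. Chromosome ends held no excess, as 63 valleys (15.3%) lay within 5 Mb of an end and 18.1% of autosomal CpGs do. The mean was higher in lambs in all 16 valleys of chromosome 10, all 9 of chromosome 9 and all 4 of chromosome 26, but in 9 of 19 on chromosome 5, 4 of 9 on chromosome 17, 4 of 9 on chromosome 23 and 3 of 7 on chromosome 25. These chromosomes are named after their values were seen, and no difference between chromosomes was tested.

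Valleys also came in runs. The median gap to the next shared valley was 2612100 bases, but 40 gaps were under 10000 bases and 62 under 100000. Joining valleys less than 100000 bases apart gave 44 runs with 106 valleys, 13 of them with 3 or more. At chr1:239008751-239070550, 4 valleys filled 93.9% of 61800 bases and stood at 5.16, 5.36 and 4.63% in fetuses and 6.08, 6.43 and 5.81% in lambs. At chr4:14233151-14264250, 4 valleys filled 92.3% of 31100 bases and stood at 5.80, 6.60 and 5.76% in fetuses and 7.89, 9.46 and 8.15% in lambs. In both runs every lamb lay above every fetus. Mean levels were higher in lambs in all 4 valleys of each, but in 2 of 4 in a run at chr11:51695151-51746350, which stood at 5.64% in fetuses and 5.62% in lambs. These runs are named after their values were seen, and other runs of 4 valleys are not described.

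The short stretches between neighbouring valleys were not fully methylated. Over the 39 spacers under 10000 bases with no valley of a single list between them, with a median of 1300 bases and 20.7 CpGs per kb, the level was 18.1, 19.4 and 17.8% in fetuses and 19.8, 21.9 and 20.9% in lambs. That is well under the 48.6 and 49.6% of the 5 kb flanks, which include these spacers. Every lamb lay above every fetus, a difference of 2.46 points (two-sided exact permutation p = 0.1).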

How the data were processed

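Whole-genome bisulfite libraries of 3 fetuses and 3 lambs were analysed. The authors deposited raw counts of methylated and covering reads per CpG position, and region lists that give positions only. Reads were mapped to Oar_v3.1, per the design text. BWA, Picard, Oar_v3.1 and hg19 are named with no role, per the submitters' processing notes. Neither the methylation caller nor the duplicate and conversion filters nor the calling of the lists is described (not given in the sources used here). All DMV ends are multiples of 50 bases, and each DMV has at least 5000 bases.

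The level is summed methylated over summed covering reads, over CpGs with at least 1 read in each of the 6 animals (21577712 of 24936679 autosomal CpGs). This minimum was taken from the rule for the members, with the lower number of calls at 5 reads known. The members, lists and tests were chosen with earlier results of these data known. Class levels were compared by exact permutation tests over animals, two-sided. Single regions and 1 kb windows with at least 3 usable CpGs were tested by a quasi-binomial logistic model, two-sided, with the dispersion moderated as by limma's squeezeVar and not allowed below 1 (prior 1.81 on 11.4 degrees of freedom for regions, 1.52 on 20.9 for windows), and adjusted by Benjamini-Hochberg within each set. The test was also tried on simulated reads, with the dispersion taken from the fit to the real regions. Precision from read counts covers counting error only, since reads are not marked by molecule.

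Regions were named by rule: called valleys, the 5 longest, the 5 of highest and of lowest CpG density, the 3 of highest and of lowest level, and any touching a DMR. Others are marked as chosen after their values were seen, or are named for the extreme stated with them. As alternatives, coverage had to reach 3, 5 or 10 reads, each animal was left out in turn, CpGs whose coverage summed to over 123 reads (3 times the median) were dropped, and CpGs were weighted equally. Others were the bases both lists hold, ends trimmed by 500 bases, 50% reciprocal overlap, valleys of at least 8 kb, limma on the log2 ratio of methylated to unmethylated reads (pseudocount 1), edgeR's quasi-likelihood test, the replicate number as a block, adjustment over all merged DMVs alone, a dispersion allowed below 1 and a minimum difference of 2 points. Added after seeing the data were the contrasts within animals of ends, length and density, UMRs of at least 3 kb, every covered CpG of each animal, and the set without valleys under 50% in both lists. Planned lists of genes and cell type markers were not run, as no annotation of the build was used here. Python 3.11.15, numpy 2.4.6, scipy 1.17.1, pandas 2.3.3, R 4.3.3, limma 3.58.1 and edgeR 4.0.16 were used.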

Additional observations from a re-analysis of the deposited data

How the results depend on the processing

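The lamb excess over the class of shared valleys kept its direction and the stages stayed apart under all alternatives but 1, at 0.668 to 1.07 points, and at 0.611 to 0.862 points without each animal. At a coverage minimum of 10 reads (316 CpGs) it was -0.736 points, and the excess over UMRs -0.474 points; the cause was not tested. That excess over UMRs otherwise ran from 0.175 to 0.696 points, and from 0.346 to 0.677 without each animal. Against the flanks the difference of -0.245 points became 0.0983 at 5 reads and -1.30 at 10 reads, and ran from -0.669 without lamb 1, where the stages did not overlap, to 0.148 without lamb 2. In 170 recomputed bins all kept their direction and 3 had overlapping stages; a minimum of 10 reads was not run for bins. The longest minus shortest contrast ran from 0.555 to 0.732 points. The call of 1 single valley became 0 at minimums of 3 and 5 reads, with trimmed ends and with the replicate block. It also became 0 with limma, with edgeR and without each animal (0 to 0). At an unadjusted p under 0.05 limma had 7 of 411 valleys, against 12% of all regions, and edgeR 78, against 12.4%. Adjusted over merged DMVs alone the number called became 45 (43 higher), against 65 among all 551 merged DMVs tested. At 10 reads 9 valleys could be tested and 0 were called. The call of 1 window became 0 at 3 and 5 reads and with the replicate block, and 0 to 1 without each animal. Replicate numbers did not pair the animals: deviations of same-numbered animals correlated at -0.0415 to 0.00134 over the valleys, and at 0.000696 to 0.0137 over all regions, where 2 of 3 fetuses correlated best with the lamb of their number. Paired by number, the class difference of 0.766 points gave an exact sign-flip p = 0.25, the smallest for 3 pairs. Coverage of 5.01 to 8.23 reads per CpG limits single windows more than valleys.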

Other observations

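On the X chromosome, outside the comparisons above, 4 merged valleys held an entry of both lists. Their summed level was 5.07, 6.31 and 4.49% in fetuses 1 to 3 and 7.08, 5.97 and 6.80% in lambs 1 to 3. Lamb 2 lay below fetus 2, so the stages overlapped there.

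The most deeply covered shared valley, chr20:50495751-50512650, had 12.2 reads per usable CpG and animal over 16900 bases. It stood at 6.10% over all animals, 1.21 points higher in lambs than in fetuses.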
